A study of Mus musculus with 70 samples.

Results

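The genes described here belong to families of the secretory granule and exocytosis machinery in the mouse pituitary gland, though some of the genes act in other compartments. They were chosen by symbol: granins (*Chga*, *Chgb* and the numbered Scg genes), synaptotagmins, syntaxins and their binding proteins (Stxbp), Vamp and Snap genes, Rab3 and Rab27 GTPases, complexins and Rims genes. This rule found 69 genes (98 transcripts) among the 22835 genes (29082 transcripts) of the RNA-seq table. Of the 69 genes, 59 had a CPM (reads scaled to a common library total) above 1 in all 18 RNA-seq libraries and were tested together with all 13145 genes that passed that limit. The other 10 (*Cplx1*, *Cplx3*, *Cplx4*, *Rims1*, *Rims4*, *Stx11*, *Stx19*, *Syt2*, *Syt8* and *Syt10*) had at most 2.80 CPM in any library, and *Cplx4*, *Syt2* and *Syt8* at most 0.205 CPM.

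Pituitary endocrine cells store peptide hormones in dense-core granules and release them by calcium-triggered fusion with the plasma membrane. Granins help to package hormone into granules, Rab3 and Rab27 proteins and Rims bring granules to the membrane, and fusion is carried out by a SNARE complex of a syntaxin, a SNAP-25 family protein and a VAMP. Syntaxin-binding proteins and complexins control SNARE assembly, and synaptotagmins include the calcium sensors that trigger fusion. Thyroid hormone (T3) acts on the gland through its nuclear receptor TRβ, encoded by *Thrb*, which recognises direct repeats of the hexamer AGGTCA separated by 4 bases, called DR4.

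The RNA-seq compared wild-type and *Thrb*-deficient (*Thrb*-KO) male mice of the C57BL/6J strain, aged 2 to 4 months, in 2 treatments. Hypothyroid mice received methimazole (MMI) with potassium perchlorate as a drink, and hyperthyroid mice were given T3 on top of MMI in the final week, so that every mouse in the comparison carried the MMI treatment. There were 4 libraries of hypothyroid wild type, 4 of hyperthyroid wild type, 5 of hypothyroid *Thrb*-KO and 5 of hyperthyroid *Thrb*-KO, each made from a pool of 3 whole pituitaries. Binding of TRβ was taken from peaks called in pituitary and in cerebral cortex of untreated mice, where HAB-tagged TRβ (*Thrb* HAB/HAB, *Rosa26* BirA/BirA) was captured with streptavidin and compared with BirA mice without the tagged receptor (the labels of the BirA libraries also name the HAB genotype, and the study's methods give them BirA alone). T3-regulated open chromatin came from ATAC-seq of nuclei purified by the *Rosa26* Sun1-GFP tag under a Cre driven by the b2 promoter of *Thrb*, a set of anterior pituitary cells rather than the whole gland, with 4 libraries each of MMI-treated and MMI + T3-treated mice. The deposited list gives no direction for these ATAC peaks, and the mice of the binding and ATAC assays were not those of the RNA-seq.

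Libraries held 21453548 to 55273749 reads. The labelled tissue was borne out by the hormone genes: the summed level of *Gh*, *Prl* and *Ghrhr* was 54620 to 212400 CPM. The *Thrb* transcript itself was not lower in *Thrb*-KO libraries (228 to 301 CPM) than in hypothyroid wild type (239 to 297 CPM), so its RNA level does not check the genotype. Libraries fell into a pair of sets that each held all 4 groups, replicates 1 and 2 against replicates 3 to 5, with *Lars2* at 2571 to 3420 CPM in the first and 53.2 to 95.1 CPM in the second. Only the *Thrb*-KO groups had a replicate 5, so the sets were not balanced by genotype, and the main model did not adjust for them. Replicate 3 of hyperthyroid wild type stood apart, with correlations to its group down to 0.915. Values without it, or within a set, are given beside many of the results they change. In bulk tissue, fewer cells of a type and less RNA per cell cannot be told apart.

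In wild-type pituitaries the genes called with T3 were some of the synaptotagmins, granins and Rab GTPases, and no SNARE gene was called. Of the 59 tested genes, 4 rose (*Syt12*, *Syt9*, *Rab27b* and *Syt6*) and 9 fell (*Chgb*, *Syt1*, *Rab3c*, *Scg3*, *Syt5*, *Syt4*, *Syt16*, *Syt13* and *Rab3a*) at an adjusted p under 0.05 in limma and a change of at least 1.5-fold. Among all tested genes 3.87% rose and 5.59% fell by the same rule. Changes are differences of mean log2(CPM + 1), given with the SE of limma, a scale that understates the change of genes of low CPM. By class, 8 of 14 tested synaptotagmins, 2 of 5 granins and 3 of 6 Rab3 and Rab27 genes were called, against none of 5 plasma-membrane syntaxins, 8 other syntaxins, 7 Stxbp, 6 Vamp, 5 Snap and 2 Rims genes and 1 complexin. The median change of the 59 genes was -0.08 on the log2 scale and that of all tested genes was -0.04, but the median size of the change without its sign was 0.22 against 0.16. By adjusted p alone, without a fold limit, 7 rose and 14 fell, where 6.89% and 12.4% of all genes did. The groups of libraries did not overlap for 6 genes that were higher and 14 that were lower, against 5.66% and 11.7% of all genes. When CPM were rescaled by TMM factors (a scaling that evens out the bulk of genes), 6 rose and 7 fell, against 5.13% and 4.1% of all genes. The share of calls that rose among all genes went from 40.9% to 55.6%. With that scaling *Cplx2* and *Stx18* passed the fold limit and *Rab3a* and *Syt13* did not.

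**Figure D1:**
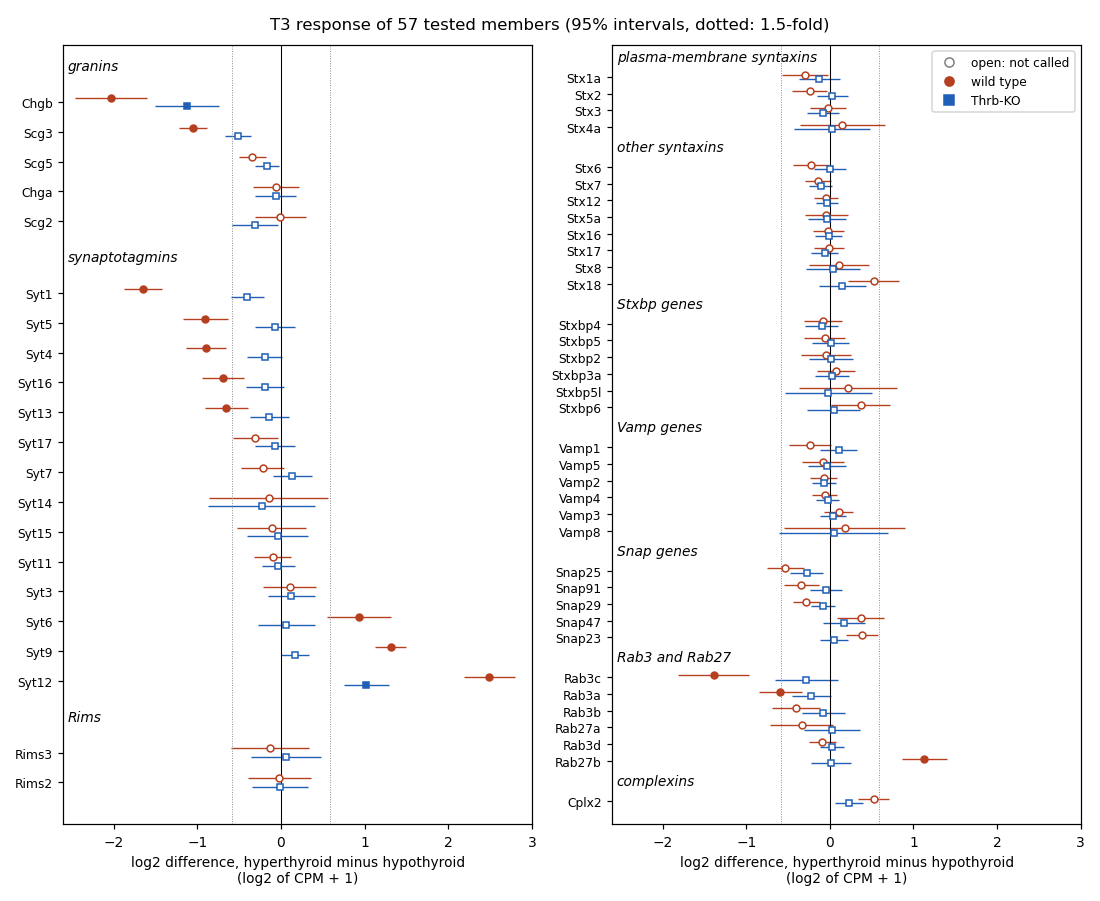
Change with T3 (hyperthyroid minus hypothyroid, log2 of CPM + 1) of 57 of the 59 tested genes by class, with 95% confidence intervals from limma; circles show wild type, squares *Thrb*-KO, filled symbols are called genes and dotted lines mark 1.5-fold. The wild-type calls lie among the granins, synaptotagmins and Rab3 and Rab27 genes, and only *Chgb* and *Syt12* are also filled in *Thrb*-KO.

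*Syt12* had the largest rise. Synaptotagmin-12 belongs to the synaptotagmin family but lacks the residues that bind calcium. Its level was 3.08, 3.12, 2.07 and 2.07 CPM in the 4 hypothyroid wild-type libraries and 18.0, 17.7, 21.4 and 19.0 CPM in the 4 hyperthyroid ones, so that the groups were far apart. The difference was 2.49 ± 0.14 (SE) on the log2 scale, 5.63-fold (limma, adjusted p = 6.5e-10). In *Thrb*-KO it went from 1.54 to 3.22 CPM in hypothyroid libraries to 5.35 to 6.29 CPM in hyperthyroid ones, a difference of 1.02 ± 0.13 (2.03-fold, adjusted p = 7.7e-05). It was the only member that rose with T3 in both genotypes, and the rise was smaller in *Thrb*-KO (difference of the responses -1.47 ± 0.19, limma, adjusted p = 9.4e-05). Hyperthyroid *Thrb*-KO libraries held 2.99-fold less *Syt12* RNA than hyperthyroid wild type (-1.58 ± 0.14, adjusted p = 2.9e-07), while hypothyroid libraries of the genotypes overlapped (-0.10 ± 0.14, interval -0.39 to 0.18).

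*Syt9*, a calcium sensor of dense-core granule release in endocrine cells, differed between genotypes in hypothyroid mice and not, by its call, in hyperthyroid mice. Hypothyroid wild-type libraries had 31.7, 31.2, 28.5 and 25.3 CPM and hyperthyroid ones 78.1, 79.1, 61.6 and 77.0 CPM. That is a rise of 1.31 ± 0.09 (2.48-fold, limma, adjusted p = 3.5e-09). In *Thrb*-KO, hypothyroid libraries lay at 54.4 to 58.4 CPM, above every hypothyroid wild-type library (0.93 ± 0.08, 1.91-fold, adjusted p = 8.1e-07), and hyperthyroid libraries at 60.8 to 66.9 CPM. These *Thrb*-KO groups did not overlap, but their difference of 0.17 ± 0.08 did not pass the threshold (adjusted p = 0.57), and the responses differed (-1.14 ± 0.12, adjusted p = 6e-06). In hyperthyroid mice the difference was not called (-0.21 ± 0.08, adjusted p = 0.12). The genotypes overlapped there only through replicate 3 of wild type (61.6 CPM), the library that stood apart from its group. The other hyperthyroid wild-type libraries (77.0 to 79.1 CPM) all lay above the *Thrb*-KO ones.

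*Syt6*, a further synaptotagmin, rose in wild type with a wider spread between libraries. Its levels were 27.1, 25.1, 15.1 and 19.8 CPM in hypothyroid and 57.1, 47.1, 29.4 and 37.4 CPM in hyperthyroid wild type, with replicates 1 and 2 above the others in both groups. The rise was 0.93 ± 0.18 (1.91-fold, limma, adjusted p = 0.001), and it was 0.96 between replicates 1 and 2 and 0.90 between replicates 3 and 4. In *Thrb*-KO the groups overlapped (18.0 to 25.8 against 19.1 to 24.7 CPM). The difference of the responses, -0.87 ± 0.25, passed the threshold narrowly (adjusted p = 0.047) and lost its call when any of 14 of the 18 libraries was left out (adjusted p 0.0073 to 0.11 over all 18). Only leaving out replicates 1 or 2 of hypothyroid wild type, replicate 3 of hyperthyroid wild type or replicate 1 of hypothyroid *Thrb*-KO kept it. In hyperthyroid mice *Thrb*-KO libraries were all below wild type (-0.83 ± 0.17, adjusted p = 0.0031), though between replicates 3 to 5 alone the difference was -0.57, under the fold limit.

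The 3 synaptotagmin genes that rose each had a TRβ-HAB peak overlapping a T3-regulated ATAC peak within 20 kb of the gene body. Windows of these and related sites on mm9 are printed 5′ to 3′ on the strand of their closest match to DR4, whose hexamers are in capitals. They are shown so that the hexamers at bound sites of genes that rose can be read beside those of genes that fell or were not called.
Syt12 site: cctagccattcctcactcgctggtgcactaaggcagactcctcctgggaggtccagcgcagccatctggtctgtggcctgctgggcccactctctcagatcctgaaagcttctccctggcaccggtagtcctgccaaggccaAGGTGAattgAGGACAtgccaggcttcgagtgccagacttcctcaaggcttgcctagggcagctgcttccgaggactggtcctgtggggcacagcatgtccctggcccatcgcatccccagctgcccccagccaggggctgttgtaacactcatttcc
Syt6 site: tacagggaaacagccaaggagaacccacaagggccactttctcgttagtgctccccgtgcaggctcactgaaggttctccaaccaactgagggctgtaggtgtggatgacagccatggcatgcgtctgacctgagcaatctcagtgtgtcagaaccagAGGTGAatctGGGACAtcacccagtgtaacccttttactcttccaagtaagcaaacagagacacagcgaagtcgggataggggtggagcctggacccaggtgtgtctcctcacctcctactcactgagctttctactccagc
Syt9 site: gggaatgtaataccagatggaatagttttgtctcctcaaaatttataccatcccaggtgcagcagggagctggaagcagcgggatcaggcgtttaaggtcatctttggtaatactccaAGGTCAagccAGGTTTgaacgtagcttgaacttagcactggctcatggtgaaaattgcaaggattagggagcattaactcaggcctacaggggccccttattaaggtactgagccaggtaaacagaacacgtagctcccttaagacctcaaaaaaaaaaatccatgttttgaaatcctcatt
Stx18 site: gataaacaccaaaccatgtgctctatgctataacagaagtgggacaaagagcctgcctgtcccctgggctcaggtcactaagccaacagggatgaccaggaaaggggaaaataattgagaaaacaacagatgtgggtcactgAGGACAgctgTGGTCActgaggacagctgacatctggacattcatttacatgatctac
Syt16 site: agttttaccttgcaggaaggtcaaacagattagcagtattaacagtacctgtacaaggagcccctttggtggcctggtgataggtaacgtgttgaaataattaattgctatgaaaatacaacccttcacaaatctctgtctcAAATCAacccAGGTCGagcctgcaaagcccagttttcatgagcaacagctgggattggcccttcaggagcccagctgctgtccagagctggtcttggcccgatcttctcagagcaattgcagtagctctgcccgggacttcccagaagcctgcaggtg
Rab27a site: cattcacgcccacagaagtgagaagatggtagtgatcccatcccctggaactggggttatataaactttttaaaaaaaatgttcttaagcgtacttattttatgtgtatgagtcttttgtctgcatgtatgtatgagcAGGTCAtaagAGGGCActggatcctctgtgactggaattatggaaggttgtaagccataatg

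The *Syt12* window (chr19:4492880-4493179, plus strand) lies 15.4 kb upstream of *Syt12* (chromosome 19, 4445908 to 4477447, minus strand), outside the gene, and closer to a start of *2010003K11Rik* (5233 bp). Its peak held 90 HAB;BirA reads and 0 control reads, the most of any pituitary peak that overlapped a T3-regulated ATAC peak near these genes, and the site was also bound in cortex (36 against 3 reads). Its hexamers, AGGTGA and AGGACA, match DR4 at 10 of 12 bases. The *Syt6* window (chr3:103435001-103435300, minus strand) is intronic, 54.9 kb from the nearest *Syt6* start, with 43 against 2 reads and a match at 9 of 12 bases (AGGTGA and GGGACA). At *Syt9* the ATAC peak lay over a coding exon at an annotated internal start, where the TRβ peak had 16 against 1 reads. The printed window (chr7:114556151-114556450, minus strand) is the strongest of 5 pituitary peaks there, intronic, 41.7 kb downstream of a start, with 40 against 1 reads and a match at 10 of 12 bases (AGGTCA and AGGTTT), and no listed ATAC peak overlapped it.

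The remaining windows belong to genes that behaved otherwise. The *Stx18* site (chr5:38447101-38447300, minus strand, intronic, 35 against 0 reads, 10 of 12 bases) overlaps a T3-regulated ATAC peak, and *Stx18* rose under the fold limit. The *Syt16* site (chr12:75332584-75332883, plus strand, intronic) comes from the peak with the second most reads near any of these genes (102 against 0). *Syt16* fell, no listed ATAC peak overlapped the site, and its hexamers AAATCA and AGGTCG match at 9 of 12 bases. The *Rab27a* site (chr9:72898101-72898300, minus strand, intronic, 18 against 0 reads) was chosen for its match, 11 of 12 bases. Each of the other windows comes from the peak with the most reads near its gene. Another intronic peak of *Rab27a* held more reads (24 against 4) and matched at 9 of 12 bases. *Rab27a* was not called in any contrast. A match is a description of the letters. The *Syt12*, *Syt9* and *Syt16* windows were cut around the closest match in peaks wider than 300 bases, and shares for such peaks were not counted. Of pituitary peaks of 300 bases 53.7% hold a match of at least 9, 20.3% of at least 10 and 4.69% of at least 11 of the 12 bases on either strand, and of those of 200 bases 48.6%, 19.1% and 3.17%.

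**Figure D2:**
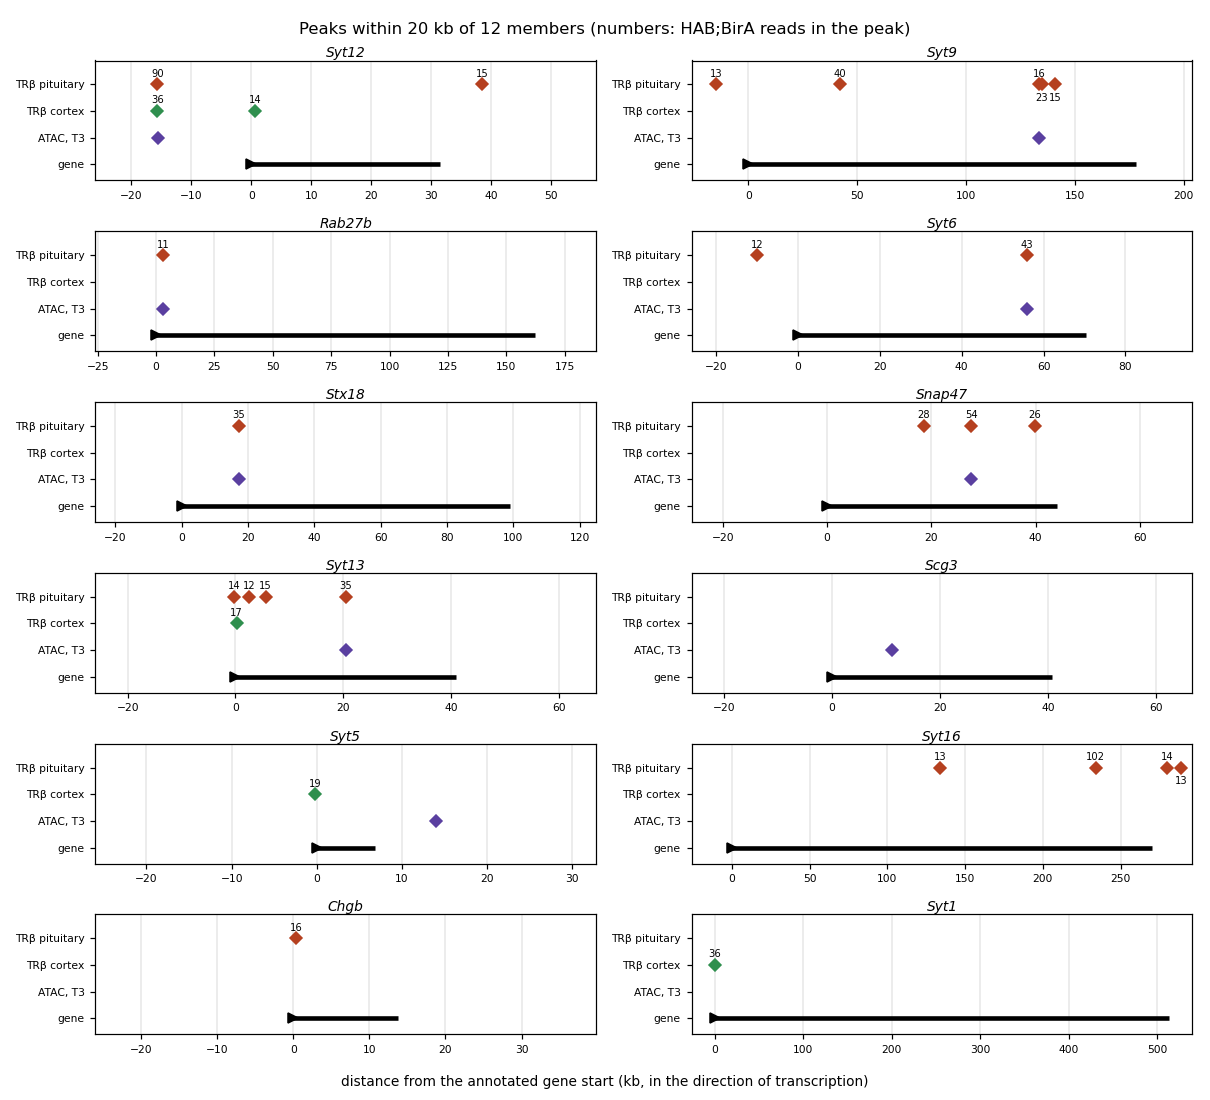
Peaks within 20 kb of 12 genes, drawn by distance (kb) from the annotated gene start in the direction of transcription; the bar is the gene body, diamonds are TRβ-HAB peaks of pituitary and cortex with their HAB;BirA reads and T3-regulated ATAC peaks. The *Syt12* site holds 90 pituitary reads above an ATAC peak, the *Syt16* site 102 reads without one, and *Syt1* has a cortex peak alone.

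Among the synaptotagmins that fell, *Syt1*, the classical fast calcium sensor of exocytosis, changed most. It had 450, 468, 525 and 530 CPM in hypothyroid wild type and 173, 189, 118 and 155 CPM in hyperthyroid wild type. The fall of 1.65 on the log2 scale (SE 0.11) is 3.13-fold (limma, adjusted p = 2.9e-09). In *Thrb*-KO, hypothyroid libraries had 298 to 320 CPM and hyperthyroid ones 229 to 242 CPM, groups that did not overlap but differed by -0.40 ± 0.10 (1.32-fold, adjusted p = 0.036), below the fold limit. The responses differed by 1.25 ± 0.14 (adjusted p = 2.6e-05). *Thrb*-KO thus sat between the wild-type groups at both treatments: lower than wild type in hypothyroid mice (-0.65 ± 0.10, 1.58-fold, adjusted p = 0.00041) and higher in hyperthyroid mice (0.59 ± 0.10, 1.51-fold, adjusted p = 0.00061). The second of these lies at the fold limit. It was 0.46 without replicate 3 of hyperthyroid wild type, fell under the limit also without replicate 2 or 3 of hyperthyroid *Thrb*-KO, and was 0.50 after TMM scaling and 0.38 between replicates 1 and 2 alone. The hypothyroid difference was -0.52 between replicates 1 and 2 alone.

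*Syt4*, a granule synaptotagmin that does not bind calcium through its first C2 domain, had 412 to 516 CPM in hypothyroid and 200 to 298 CPM in hyperthyroid wild type, without overlap (-0.90 ± 0.11, 1.86-fold, limma, adjusted p = 8.8e-06). In *Thrb*-KO the groups overlapped (-0.19 ± 0.10, adjusted p = 0.72) and the responses differed by 0.70 ± 0.15 (adjusted p = 0.0072), or 0.58 between replicates 1 and 2 alone, just under the fold limit. *Syt5*, a further calcium sensor of dense-core granules, had 30.0 to 37.2 CPM in hypothyroid and 14.9 to 18.6 CPM in hyperthyroid wild type (-0.91 ± 0.13, 1.87-fold, adjusted p = 3.7e-05). In *Thrb*-KO both groups lay between 23.0 and 33.5 CPM (-0.07 ± 0.11, adjusted p = 1), and the responses differed by 0.84 ± 0.17 (adjusted p = 0.0053). Hyperthyroid *Thrb*-KO libraries were all above hyperthyroid wild type (0.69 ± 0.12, adjusted p = 0.00064, and 0.56 between replicates 1 and 2 alone).

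*Syt16* and *Syt13* fell less. *Syt16*, which encodes a synaptotagmin without calcium-binding residues, had 10.6 to 12.8 CPM in hypothyroid and 6.12 to 9.16 CPM in hyperthyroid wild type (-0.69 ± 0.12, 1.61-fold, limma, adjusted p = 0.00034). Its difference between genotypes was larger in hyperthyroid mice, where *Thrb*-KO libraries had 11.7 to 14.5 CPM (0.80 ± 0.11, 1.74-fold, adjusted p = 9.1e-05). The T3 effects did not differ past the threshold (0.50 ± 0.16, adjusted p = 0.088), except without replicate 4 of hyperthyroid wild type. *Syt13* had 126 to 150 CPM in hypothyroid and 67.3 to 102 CPM in hyperthyroid wild type (-0.65 ± 0.12, 1.57-fold, adjusted p = 0.00074), and without replicate 3 of hyperthyroid wild type the change was -0.52, under the fold limit, as it was between replicates 1 and 2 alone (-0.55). In *Thrb*-KO it changed by -0.14 ± 0.11 and the responses were not called different (0.51 ± 0.17, adjusted p = 0.09), except within replicates 3 to 5 (0.72). *Syt7*, a slow calcium sensor of granule fusion and the gene with the most reads in a nearby TRβ peak (121 against 6, 16.2 kb outside the gene), was not called with T3 in wild type (-0.22 ± 0.12, interval -0.48 to 0.04, adjusted p = 0.27).

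The granins split. *Chgb* (chromogranin B, a main matrix protein of dense-core granules) fell from 11820, 12050, 23330 and 21980 CPM in hypothyroid wild type to 3295, 3548, 4788 and 4677 CPM in hyperthyroid wild type. The groups did not overlap, and replicates 3 and 4 were higher than 1 and 2 in both. The difference was -2.03 ± 0.20, 4.09-fold (limma, adjusted p = 7.5e-07). In *Thrb*-KO *Chgb* went from 10520 to 12430 CPM down to 4599 to 5737 CPM (-1.12 ± 0.18, 2.18-fold, adjusted p = 0.0013), the only fall among these genes that was called in both genotypes. That call was lost when genes of low CPM were kept in the fit (adjusted p = 0.49). In hypothyroid mice *Chgb* was 1.47-fold lower in *Thrb*-KO than in wild type, not past the threshold (-0.56 ± 0.19, adjusted p = 0.1). That difference was -0.17 between replicates 1 and 2 and -0.97, with a call, between replicates 3 to 5, and it was called also without replicate 1 or 2 of hypothyroid wild type and with the library set as a block (-0.60). The difference of the responses was 0.91 ± 0.27 (adjusted p = 0.064). With replicate number as a block it was called, at an adjusted p of 0.0045, and it was also called within each library set (0.61 and 1.18) and without replicate 1 or 2 of hypothyroid wild type or replicate 3 of hyperthyroid wild type.

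*Scg3* (secretogranin III, which tethers granin aggregates to the granule membrane) had 473 to 589 CPM in hypothyroid and 243 to 266 CPM in hyperthyroid wild type (-1.05 ± 0.08, 2.07-fold, limma, adjusted p = 2.4e-08). In *Thrb*-KO the groups did not overlap either, with 423 to 484 against 292 to 340 CPM (-0.51 ± 0.07, 1.43-fold, adjusted p = 0.00032), a change under the fold limit. The responses differed by 0.54 ± 0.11 (adjusted p = 0.0049), also under that limit. Within replicates 3 to 5 both passed it (-0.59 and 0.60), and the second did so without replicate 1 of hypothyroid wild type. *Scg5*, the chaperone of prohormone convertase 2, was lower in all hyperthyroid wild-type libraries by 1.27-fold (-0.34 ± 0.08, adjusted p = 0.0033). *Chga* and *Scg2* gave no call: the intervals of their wild-type change were -0.33 to 0.22 and -0.31 to 0.30 on the log2 scale, with *Chga* at 565 to 879 CPM and *Scg2* at 2371 to 3283 CPM over both groups.

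**Figure D3:**
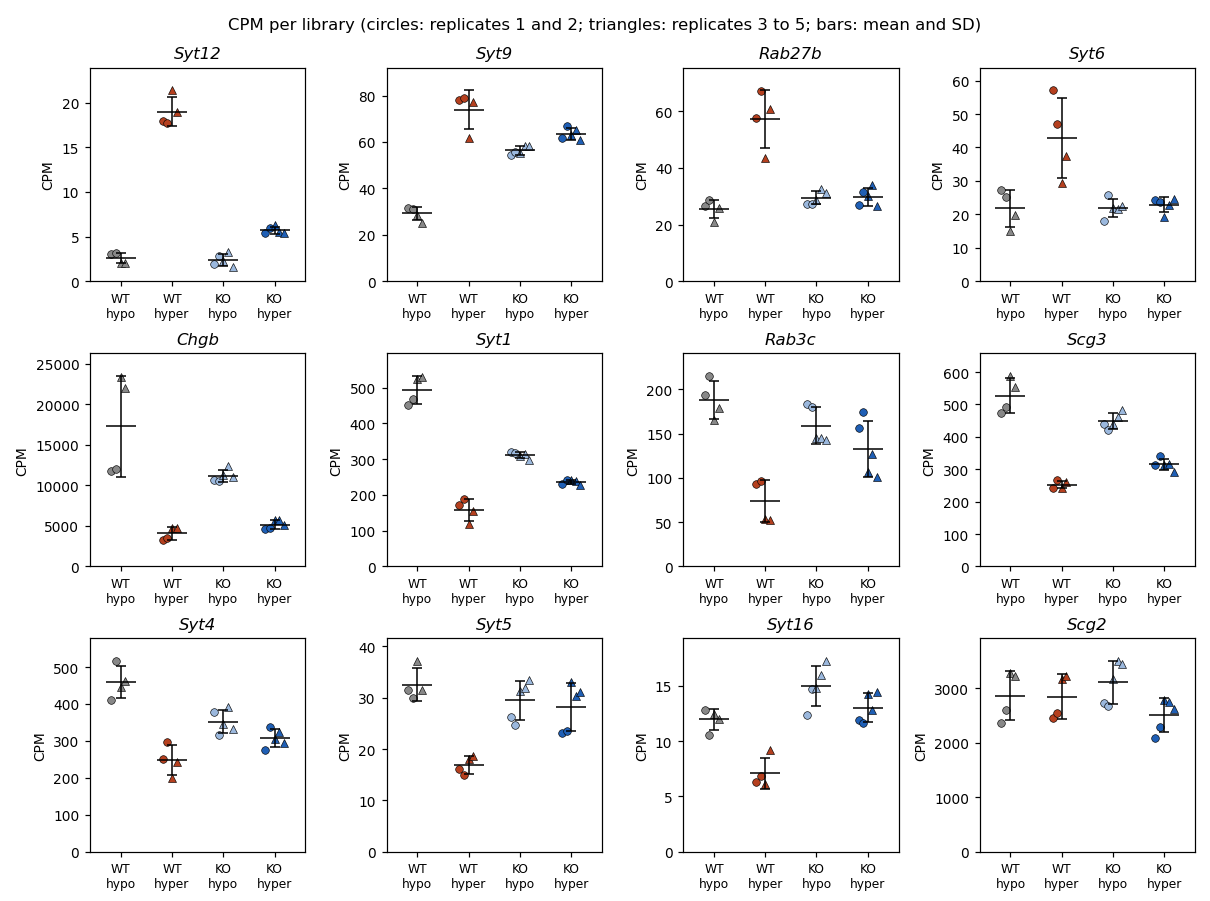
CPM of 12 genes in every RNA-seq library by group (WT, wild type; KO, *Thrb*-KO; hypo, MMI; hyper, MMI + T3), with circles for replicates 1 and 2, triangles for replicates 3 to 5, and bars for the mean and SD of 4 or 5 libraries. *Syt12*, *Syt9*, *Rab27b* and *Syt6* rise in wild type and *Chgb* to *Syt16* fall. For these genes, called with T3 in wild type, the *Thrb*-KO groups lie closer together than the wild-type groups. *Scg2*, shown as a granin that was not called, changed by -0.007 in wild type and -0.31 in *Thrb*-KO on the log2 scale.

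*Rab27b*, a GTPase that docks granules at the plasma membrane, rose from 26.4, 28.7, 20.9 and 25.8 CPM to 57.5, 67.4, 43.4 and 60.8 CPM in wild type. The difference was 1.13 ± 0.13, 2.19-fold (limma, adjusted p = 2.3e-06). In *Thrb*-KO the groups overlapped, at 27.3 to 32.6 CPM in hypothyroid and 26.6 to 34.1 CPM in hyperthyroid libraries (0.01 ± 0.11, interval -0.22 to 0.25). The responses differed by -1.12 ± 0.17 (adjusted p = 0.00038), and hyperthyroid *Thrb*-KO libraries were all below hyperthyroid wild type (-0.91 ± 0.12, 1.88-fold, adjusted p = 3.6e-05). An exon of *Rab27b* held a T3-regulated ATAC peak that overlapped a TRβ-HAB peak of 11 against 0 reads with a DR4 match at 10 of 12 bases. *Rab27a*, its paralog, had 123 to 186 CPM in hypothyroid and 94.3 to 151 CPM in hyperthyroid wild type, with no call in any contrast (T3 in wild type -0.34 ± 0.18, adjusted p = 0.23).

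Rab3 proteins mark granules and bind Rims, and of their 4 genes *Rab3c* and *Rab3a* fell. *Rab3c* had 193, 215, 166 and 179 CPM in hypothyroid and 93.5, 96.2, 53.8 and 52.1 CPM in hyperthyroid wild type (-1.39 ± 0.20, 2.62-fold, limma, adjusted p = 5.3e-05). In *Thrb*-KO the groups overlapped (-0.28 ± 0.18, adjusted p = 0.93), and the responses differed by 1.11 ± 0.27 (adjusted p = 0.019). Hyperthyroid *Thrb*-KO libraries had 101 to 174 CPM, all above hyperthyroid wild type (0.87 ± 0.19, 1.82-fold, adjusted p = 0.0048). *Rab3a* fell from 46.4 to 61.6 CPM to 32.8 to 38.6 CPM (-0.59 ± 0.12, 1.51-fold, adjusted p = 0.0017). It lay at the fold limit and dropped under it without replicate 3 or 4 of hypothyroid wild type or replicate 1 or 2 of hyperthyroid wild type, under TMM scaling (-0.49), and between replicates 1 and 2 alone (-0.50). *Rab3b* was 1.32-fold lower (adjusted p = 0.047), under the fold limit, and *Rab3d* was not called (-0.09 ± 0.08, adjusted p = 0.52).

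The SNARE genes themselves showed small changes. *Snap25*, the plasma-membrane SNARE of neuroendocrine cells, had 197 to 239 CPM in hypothyroid and 122 to 180 CPM in hyperthyroid wild type, without overlap, a 1.45-fold fall under the limit (-0.53 ± 0.10, limma, adjusted p = 0.001). Its fall was called without replicate 3 of hypothyroid or replicate 2 of hyperthyroid wild type, and between replicates 3 and 4 alone (-0.62). *Snap23*, the broadly expressed relative of *Snap25*, was 1.31-fold higher (0.39 ± 0.09, adjusted p = 0.0041), and *Snap29*, an intracellular SNARE, and *Snap91*, which encodes a clathrin adaptor rather than a SNARE, were 1.21- and 1.27-fold lower (adjusted p = 0.012 and 0.021). *Snap47* had 78.0 to 106 CPM in hypothyroid and 99.6 to 143 CPM in hyperthyroid wild type (0.37 ± 0.13, adjusted p = 0.064), with an intronic TRβ peak of 54 against 5 reads that overlapped a T3-regulated ATAC peak. *Stx18*, a syntaxin of the endoplasmic reticulum, had 16.9 to 23.4 CPM against 23.3 to 35.7 CPM (0.52 ± 0.15, 1.44-fold, adjusted p = 0.016). It was called without replicate 3 of hypothyroid wild type or replicate 1 or 2 of hyperthyroid wild type, and between replicates 3 and 4 alone (0.62). TMM rescaling, edgeR and DESeq2 also called *Stx18*.

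Genes of the highest CPM in 5 further classes gave no call. The wild-type change was -0.02 ± 0.10 for *Stx3*, a plasma-membrane syntaxin (interval -0.23 to 0.19). It was -0.02 ± 0.09 for *Stx16*, a Golgi syntaxin (interval -0.20 to 0.16). *Vamp2*, the granule SNARE, changed by -0.07 ± 0.08 (interval -0.24 to 0.09). *Rims2*, an active-zone scaffold that binds Rab3, changed by -0.02 ± 0.18 (interval -0.39 to 0.36). *Cplx2*, the complexin of endocrine cells and the single tested one, was higher in all hyperthyroid wild-type libraries (400 to 497 CPM) than in hypothyroid ones (286 to 334 CPM). At 1.44-fold it was just under the limit (0.53 ± 0.09, limma, adjusted p = 0.00023). It was called between replicates 3 and 4 alone (0.75) and under TMM rescaling, edgeR and DESeq2. The 6 Vamp genes ranged from -0.24 to 0.18.

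In *Thrb*-KO the response to T3 was called for 2 of the 59 genes, *Syt12* (higher) and *Chgb* (lower), as described, where 0.411% of all tested genes rose and 0.601% fell. *Scg3* and *Syt1* passed the adjusted p without the fold limit. The median change was -0.03 for the 59 genes and -0.01 for all genes. The median size of the change without its sign was 0.07 for the 59 genes and 0.07 for all genes, against 0.22 and 0.16 in wild type. The response differed between genotypes for 8 genes. The change was more positive in *Thrb*-KO than in wild type for *Syt1*, *Rab3c*, *Syt5* and *Syt4*, where 2.48% of all genes were called in that direction, and more negative for *Syt12*, *Syt9*, *Rab27b* and *Syt6*, where 1.78% were. The median difference of the responses was 0.04 both for the 59 genes and for all genes. All 8 had been called with T3 in wild type, and each moved less in *Thrb*-KO. With TMM scaling the members kept 4 calls in each direction, against 1.92% of all genes in the positive and 2.46% in the negative direction. Among all genes the share of calls in the positive direction went from 58.2% to 43.8%. The contrasts of responses and of genotypes share libraries with the T3 contrasts.

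Between genotypes, 2 of the 59 genes were called in hypothyroid mice and 8 in hyperthyroid mice. In hypothyroid mice, *Syt9* was higher and *Syt1* lower in *Thrb*-KO, against 1.01% and 2.01% of all genes. *Stx3*, *Cplx2*, *Syt4* and *Syt17* passed the adjusted p there without reaching 1.5-fold (0.39, 0.31, -0.38 and -0.55). In hyperthyroid mice 5 genes were higher in *Thrb*-KO (*Rab3c*, *Syt16*, *Syt5*, *Rims3* and *Syt1*) and 3 lower (*Syt12*, *Rab27b* and *Syt6*), against 2.54% and 2.32% of all genes. With TMM scaling 3 were higher and 3 lower, without *Rims3* and *Syt1*, against 1.82% and 2.96% of all genes. The share of higher calls among all genes went from 52.3% to 38.1%. The median difference of the 59 genes was 0.05 in hypothyroid and 0.15 in hyperthyroid mice, against 0.03 and 0.07 over all genes. *Rims3*, a Rim protein that lacks the Rab3-binding domain, had 3.04 to 6.37 CPM in hyperthyroid wild type and at least 6.99 CPM in hyperthyroid *Thrb*-KO (0.67 ± 0.21, limma, adjusted p = 0.046). It was the weakest of the 8, and its call was lost when any of 10 of the 18 libraries was left out (adjusted p 0.035 to 0.16). Without replicate 3 of hyperthyroid wild type it was 0.48.

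Peaks near the genes, called on merged libraries and so without a value per replicate, were counted within 20 kb of the gene body. A pituitary TRβ-HAB peak lay near 42 of the 69 genes and 40 of the 59 tested ones, where 41.3% of the 12898 tested genes placed on mm9 had one. A cortex TRβ-HAB peak lay near 27 of 69 (25 tested), against 34.9%, and a T3-regulated ATAC peak near 10 of 69, all tested, against 7.79%. Tested members have longer gene bodies (median 41.0 kb) than all tested genes (25.0 kb), and the part of length in these shares was not tested. The 71 pairings of a member with a pituitary peak, one peak lying near a pair of members, held 10 to 121 HAB;BirA reads (median 18). Of them 33 were in introns, 26 outside the gene and 12 in exons, and 17 lay within 1 kb of an annotated start. A DR4 match of at least 10 of 12 bases stood in 12 of the 71, where 20.9% of all 8051 pituitary peaks, 9.29% of 5164 cortex peaks and 30.9% of 1776 ATAC peaks held one.

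The 10 genes with an ATAC peak were *Rab27b*, *Rims2*, *Scg3*, *Snap47*, *Stx18*, *Syt5*, *Syt6*, *Syt9*, *Syt12* and *Syt13*. All 4 genes that rose in wild type had both an ATAC and a pituitary TRβ peak, and in each of them these overlapped. Among all genes that rose, 32.7% had an ATAC peak and 74.0% a pituitary TRβ peak within 20 kb. The share with both, or with peaks that overlapped, was not counted over all genes. Of the 9 genes that fell, 3 had an ATAC peak (*Scg3*, *Syt5* and *Syt13*) and 5 a pituitary TRβ peak (*Chgb*, *Rab3a*, *Rab3c*, *Syt13* and *Syt16*), and *Syt13* alone had both, overlapping in an intron (35 against 3 reads). Among all genes that fell the shares were 10.2% and 37.4%. *Syt1*, *Syt4*, *Syt5* and *Scg3* had no listed pituitary TRβ peak within 20 kb, while *Syt1* had a cortex peak over its start (36 against 5 reads). At *Chgb* the peak began 237 bp downstream of the start, with 16 against 2 reads. The *Rab3a* peak lay 15325 bp outside the gene and 236 bp from a start of *Pik3r2*.

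**Figure D4:**
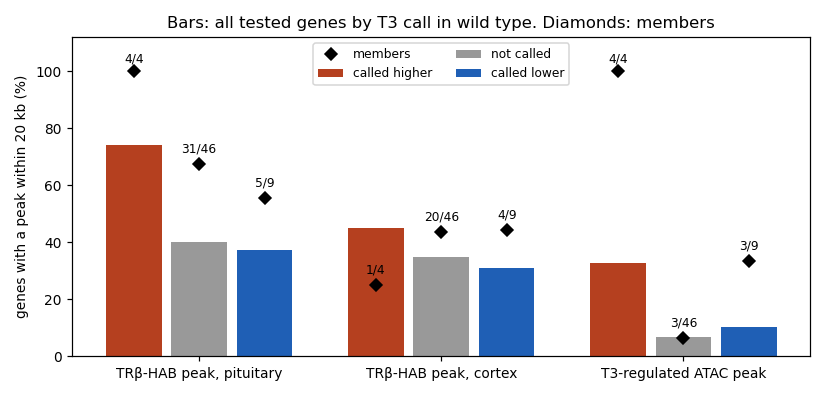
Share (%) of genes with a peak within 20 kb, for all tested genes that rose, were not called or fell with T3 in wild type (bars) and for the members in the same classes (diamonds, with their counts). The 4 members that rose all have pituitary TRβ and ATAC peaks, and of the 9 that fell 5 and 3 do.

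Other genes of the secretory pathway were taken from lists of known roles, to be read against the 3.87% of all genes that rose and the 5.59% that fell with T3 in wild type. Of 14 tested genes for granule cargo processing, none rose and 4 fell. These were *Vgf* (a granin-like precursor, -3.41), *Pcsk1* (the prohormone convertase PC1/3, -2.43), *Ptprn* (a granule membrane protein, -1.79) and *Pam* (the peptide-amidating enzyme, -1.49). In *Thrb*-KO *Vgf*, *Ptprn* and *Pcsk1* fell (-1.96, -0.71 and -0.70), and all 4 responses differed between genotypes in limma. In hypothyroid mice *Pcsk1*, *Vgf*, *Pcsk2* (the convertase PC2) and *Pam* were lower in *Thrb*-KO than in wild type (-1.37, -0.84, -0.68 and -0.67). For *Pam* that difference was -0.53 between replicates 1 and 2. *Ptprn* was higher in hyperthyroid *Thrb*-KO (0.61, or 0.54 without replicate 3 of hyperthyroid wild type).

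Of 18 tested genes for SNARE disassembly and vesicle membrane proteins, none rose and 6 fell in wild type: *Sv2c* (-2.07), *Sv2b* (-0.99), *Syn1* (-0.91), *Nsf* (-0.80), *Pacsin1* (-0.73) and *Amph* (-0.64). *Amph* was under the fold limit between replicates 1 and 2 alone (-0.48). *Sv2c* fell in *Thrb*-KO too (-1.06), and the responses differed between genotypes for *Sv2c*, *Sv2b*, *Syn1* and *Nsf*. Without replicate 3 of hyperthyroid wild type the differences of the responses were under the fold limit for *Syn1* (0.48) and *Nsf* (0.52). Between replicates 1 and 2 alone those of *Nsf*, *Syn1* and *Sv2b* were (0.50, 0.52 and 0.48). *Sv2c* was lower in hypothyroid *Thrb*-KO than in wild type (-0.74, or -0.32 between replicates 1 and 2), and *Sv2b*, *Syn1* and *Syn3* were higher in hyperthyroid *Thrb*-KO, of which *Syn1* (0.43) and *Syn3* (0.50) were under the limit without that library.

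Among 27 priming and tethering factors 1 rose and 2 fell in wild type. *Doc2b*, a calcium-binding C2-domain protein, rose by 0.82, but its groups overlapped and the change was 1.52 between replicates 1 and 2 and 0.12 between replicates 3 and 4. It was lower in *Thrb*-KO at both treatments (-0.98 and -1.94), although in hypothyroid mice the difference was -0.49 between replicates 1 and 2. *Erc2* and *Cadps2* fell by 0.72 and 0.59 on the log2 scale, and both were under the fold limit without replicate 3 of hyperthyroid wild type (-0.56 and -0.47) and between replicates 1 and 2 alone (-0.54 and -0.45). None of 16 Rab3 and Rab27 regulators and effectors was called with T3. *Rph3a*, an effector of both Rab families, was 2.08-fold higher in hypothyroid *Thrb*-KO and 2.39-fold higher in hyperthyroid *Thrb*-KO than in wild type. *Sytl4* (granuphilin), a Rab27 effector, was 1.60-fold higher in hypothyroid *Thrb*-KO, with a log2 difference of 0.55 between replicates 1 and 2 alone.

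Markers of pituitary cell types moved with treatment, and their part in the changes above was not tested. All 3 thyrotroph markers (*Tshb*, *Trhr* and *Dio2*) fell in both genotypes: their summed level was 3941 to 7701 CPM in hypothyroid and 82.2 to 462 CPM in hyperthyroid wild type, and 4000 to 5480 against 291 to 348 CPM in *Thrb*-KO. The falls of *Trhr* and *Dio2* were smaller in *Thrb*-KO, with called differences of the responses (2.04 and 2.81). For *Tshb* no difference was called (0.13 ± 0.68). *Trhr* and *Dio2* were called lower in hypothyroid and higher in hyperthyroid *Thrb*-KO than in wild type. Of the somatotroph and lactotroph markers *Gh* and *Prl* rose in wild type and *Prl* in *Thrb*-KO. Their sum with *Ghrhr* was 54620 to 74970 against 102000 to 212400 CPM in wild type and 63040 to 78650 against 101900 to 131000 CPM in *Thrb*-KO. No gonadotroph, corticotroph and melanotroph, or pituicyte marker was called with T3, and the 3 gonadotroph markers summed to 862 to 1321 CPM over all groups. Of 6 tested neuronal markers *Nefm* fell with T3 in wild type (-0.97), while the median change of the list was 0.10. *Nefl* was lower (-0.32) and *Tubb3* higher (0.48), both under the fold limit. The list summed to 41.2 to 69.3 CPM over all libraries. Of 7 endothelial, immune and stromal markers *Col1a1* fell in wild type (-0.73, or -0.55 without replicate 3 of the hyperthyroid group; sum 337 to 412 against 248 to 382 CPM), and of 4 stem and folliculostellate markers none was called with T3. No marker was at 0 in all libraries.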

How the data were processed

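RNA-seq (18 libraries), peaks of TRβ-HAB binding and T3-regulated ATAC peaks were analysed. For RNA, the authors mapped single-end reads to mm9 transcripts and deposited CPM per transcript, and the transcript with the highest mean CPM stood for each gene. Whole reads recovered from the CPM steps came out whole for 100% of values (tolerance 0.05 reads), giving 21453548 to 55273749 reads per library. Intervals cover the spread between pooled libraries. For binding, the authors pooled reads by genotype before peak calling in SICER 1.1, and the deposited lists give the count of reads in each peak for HAB;BirA and BirA, their fold ratio, a p-value and an FDR. The deposited ATAC list gives an adjusted p-value only, from a test of the authors between treatments, and this column was used to choose the lowest 50% of peaks alone.

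Genes above 1 CPM in all libraries were tested with limma 3.58.1 (R 4.3.3) on log2(CPM + 1) with a trended prior in a model of the 4 groups, adjusted by Benjamini-Hochberg over 13145 genes. Genes at an adjusted p under 0.05 and at least 1.5-fold were called. The members and lists were chosen with earlier results of these data known. Genes were named if called, highest in CPM in their class, near an ATAC peak or among the 3 with the most pituitary reads in a peak. *Chga*, *Scg2*, *Scg5*, *Rab3b*, *Rab3d*, *Snap23*, *Snap29*, *Snap91* and *Syt17* were named after their values were seen. Alternatives were TMM rescaling, edgeR 4.0.16 and DESeq2 1.42.0 on recovered reads, other filters and pseudocounts, blocks, single library sets and each library left out. The fit was tested on simulated data. Same-numbered libraries deviated together in 25 of 25 pairs (r 0.13 to 0.82), with the replicate numbers taken from the titles, and the main model had no block. Libraries of unlike number within a set also deviated together, while across sets r was -0.78 to -0.24. A shared number can therefore not be told apart from a shared set here. DR4 matches were searched on both strands of mm9 in Python 3.11.15 with pandas 2.3.3 and numpy 2.4.6, and figures drawn with matplotlib 3.10.9. Of the 69 genes, all were placed on mm9. No per-sample column was left unused (0), histone and treated binding libraries were not analysed here, protein sequences were not used here, and the values of some members are not reported here.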

Additional observations from a re-analysis of the deposited data

Results flagged for a closer look

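In hyperthyroid wild type, replicate 3 lay far below the other 3 libraries for *Syt9* (61.63 CPM) and for *Stx16* (139.4 CPM), past Dixon's 95% limit for the gap to the nearest library. These were 2 of 100 groups looked at, and chance gives about 1 in 20. The response to T3 differed between genotypes in limma (*Thrb*-KO minus wild type, log2 scale) for *Syt12* (-1.473), *Syt9* (-1.141), *Rab27b* (-1.116), *Syt6* (-0.8655), *Syt4* (0.7028), *Syt5* (0.8359), *Rab3c* (1.11) and *Syt1* (1.245).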

How the results depend on the processing

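No called difference of a named gene changed direction under the alternatives run, while some that were not called, such as T3 in wild type for *Rims2*, *Rims3*, *Stx3*, *Stx16* and *Vamp2*, changed sign. Without a fold limit, 21 genes were called with T3 in wild type, where 6.89% of all genes rose and 12.4% fell. In *Thrb*-KO 4 were called with T3, and 6 between hypothyroid and 16 between hyperthyroid genotypes. The shares of all genes by that rule are not given here for those contrasts. With genes of low CPM kept, 1 was called with T3 in *Thrb*-KO. Between hypothyroid genotypes, DESeq2 called 4, adding *Chgb* and *Syt17*, and replicates 3 to 5 alone called 5, adding *Chgb*, *Rims3* and *Stxbp5l*. With each library left out, calls numbered 12 to 14 (T3 in wild type), 2 in every case (T3 in *Thrb*-KO), 7 to 10 (difference of responses), 2 to 3 (hypothyroid) and 6 to 9 (hyperthyroid). The 50% of peaks with the lowest FDR or adjusted p gave 25 of 69 genes near a pituitary, 16 near a cortex and 4 near an ATAC peak. Among all tested genes placed on mm9 the shares were 25.0%, 19.4% and 3.77%. The causes were not tested. With replicate number as a block, the counts were 13, 2, 9, 2 and 8, with *Chgb* gained for the difference of responses and no call of another member changed. Only 5 of 18 libraries correlated best with their own number.

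Changes near 1.5-fold (*Rab3a*, *Syt13*, *Syt1* between hyperthyroid genotypes, *Cplx2*, *Stx18* and *Snap25*) passed or missed the fold limit by setting. For the 10 genes left untested, low CPM is the limit. Peaks had no replicate values.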
